A study of Mus musculus with 8 samples.

Results

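The mitochondrial genome of the mouse carries 37 genes, and all 37 were found among the 54091 gene rows of the table, by a symbol starting with mt- or by the bare names of the subunit genes (ND1 to ND6, ND4L, CYTB, COX1 to COX3, ATP6 and ATP8). They are 2 rRNA genes, 13 mRNA genes and 22 tRNA genes. The choice used names alone and no measured value. RNA had been sequenced from white quadriceps, a fast glycolytic muscle, of male mice aged 11 to 14 weeks that had fasted overnight for 14 h. The control group was 4 mice labelled Loxp/Loxp, with no Cre in the label (floxed control 1 to 4). The other group was 4 mice labelled as muscle knockouts of Acot2, which encodes a thioesterase of the mitochondrial matrix, made with a CKM Cre (knockout 5 to 8). CKM is the muscle creatine kinase gene, whose promoter drives Cre in muscle fibres and leaves the other cells of the muscle with the gene. No mice with Cre and without floxed alleles were analysed here, so Cre and the loss of Acot2 cannot be told apart.

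As background, the small circular genome of the mitochondrion is transcribed from both strands into long polycistronic RNAs, which are cut mostly at the tRNAs that lie between the other genes. The 2 rRNAs build the mitochondrial ribosome, and the mRNAs encode core subunits of complexes I, III and IV and of ATP synthase, whose remaining subunits come from nuclear genes. Mature levels depend on transcription, on cutting, and on how long each RNA lasts. Muscle is rich in these RNAs because its fibres are rich in mitochondria. By the annotation, 28 of the genes are read as plus-strand RNA, the strand copied from the heavy strand. The other 9 are read as minus-strand RNA, copied from the light strand, and these are ND6 and 8 tRNA genes.

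Per library, 28659625 to 40977866 reads lay on genes, and 4114638 to 5921107 of them lay on these 37. Values below are normalized counts, that is reads divided by 1 size factor per library, and 3 reads correspond to 2.61 to 3.63 normalized counts. Acot2, the targeted gene, stood at 1675, 3927, 2492 and 1530 normalized counts in the floxed controls and at 413, 311, 600.5 and 543 in the knockouts, all below every control. Its limma difference was -2.30 on the log2 scale (SE 0.287, adjusted p = 0.087 with Benjamini-Hochberg adjustment), and the near-identical Acot1 may take some of its reads. Skeletal muscle markers made up 9.49% to 13.9% of all normalized counts. In such bulk tissue, fewer cells of a type and less RNA per cell cannot be told apart.

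The rRNA genes gave most of the mitochondrial counts. The large rRNA, mt-Rnr2 (chrM:1094-2675, plus strand, GRCm38), stood at 3075734, 3410376, 2881921 and 2636513 normalized counts in the floxed controls and at 2853695, 2982725, 3765734 and 3318499 in the knockouts. The groups overlapped, and only knockout 7 lay above every control. The small rRNA, mt-Rnr1 (chrM:70-1024, plus strand), stood at 265508, 388269, 275768 and 299271 in the controls and at 343916, 280880, 374991 and 295315 in the knockouts. Its highest library was a control. mt-Rnr2 was 8.30 to 11.6 times mt-Rnr1 in normalized counts in the 8 libraries, and 5.01 to 6.99 times per kb of gene. Per kb of gene, mt-Rnr2 was the most abundant of the 37 genes in every library, with a mean of 1969437 normalized counts per kb over its whole length, and it exceeded the next gene, COX1, 3.64 to 4.96 times. COX1 has annotated nuclear copies over much of its length. With all counts set over the bases without such a copy, the means per kb were 2053823 for mt-Rnr2 and 1911115 for COX1, the ratio was 0.955 to 1.30, and mt-Rnr2 was the higher in 6 of 8 libraries. How ribosomal RNA was removed or mRNA selected before sequencing is not given in the sources used here, so the level of the rRNAs against the mRNAs is that of these libraries.

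Of the 12 mRNA genes on the plus strand, 6 were abundant. COX1 (chrM:5328-6872), the catalytic subunit of cytochrome c oxidase, led with 715800, 790112, 733633 and 518720 normalized counts in the floxed controls and 680624, 799201, 834237 and 859774 in the knockouts. Floxed control 4 was the lowest library, and knockouts 6, 7 and 8 lay above every control. ND1 (chrM:2751-3707), a membrane subunit of complex I, stood at 143460, 175060, 153714 and 113072 in the controls and at 143530, 178516, 192980 and 181246 in the knockouts, with the same 3 knockouts above every control. CYTB (chrM:14145-15288), the cytochrome b of complex III, stood at 124768, 159300, 137035 and 112043 in the controls and at 144388, 139305, 151126 and 145251 in the knockouts. All 4 knockouts lay inside the range of the controls. ND2, ND4 and ND5, the other abundant members, are proton-pumping subunits of complex I. ND2 ranged over the 8 libraries from 51002 to 72198 normalized counts, ND4 from 49487 to 66060 and ND5 from 58416 to 87754, each with its lowest value in floxed control 4.

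Per kb, the mean levels ran from COX1 (479943 normalized counts per kb) over the rRNA mt-Rnr1 (330356) to ND1 (167395), CYTB (121636), ND2 (61579), ND4 (40015) and ND5 (37015). Each gene in this order was above the next in 8 of 8 libraries, except that ND4 was above ND5 in 7, with ratios of 0.996 to 1.13 that leave these neighbours without a clear order over whole genes. The order depends on the length used. All counts of a gene were also set over its bases without a nuclear copy, as if no read came from copied bases. By that length, ND4 (109842 per kb) was above ND2 (74411) in 8 of 8 libraries and 2.07 to 2.36 times ND5 (48888). CYTB was above ND4 in 6 of 8. Reads on the bases without a copy were not counted apart. COX1 was 1.07 to 1.80 times mt-Rnr1 per kb of whole gene, and 4.27 to 7.17 times with all counts set over the bases without a copy. COX1 alone made up 56.9% to 63.0% of the normalized counts on mitochondrial mRNA genes, before any correction for length.

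**Figure D1:**
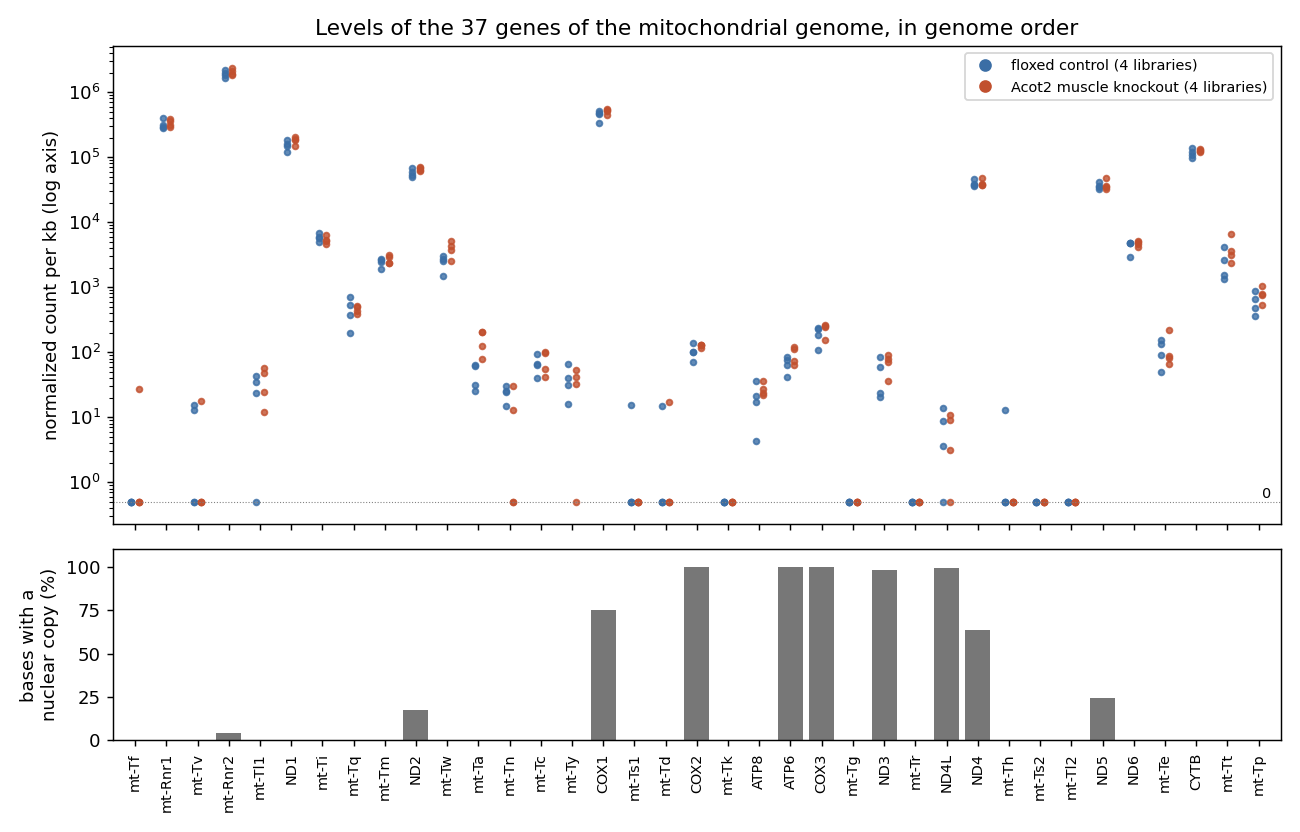
Upper panel: normalized counts per kb of gene (log axis, with values of 0 drawn on the dotted line) of the 37 mitochondrial genes in genome order, 1 point per library, floxed controls blue and knockouts red. Lower panel: percent of each gene's bases inside an exact match of 50 bases to an annotated nuclear transcript; the 6 mRNA genes from COX2 to ND4L have mean levels of 6.21 to 209.6 per kb, and 5 of them are over 95% copied.

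The other 6 plus-strand mRNA genes lie next to each other, and all were close to 0 beside their neighbours. They are COX2, ATP8, ATP6, COX3, ND3 and ND4L, which together with the tRNA genes among them fill chrM:7013-10173, between COX1 and ND4. Together they gave 171 to 412 normalized counts per library, or 0.0189% to 0.0323% of the counts on mitochondrial mRNA. COX3, a core subunit of complex IV, stood at 188, 181, 144 and 86.2 normalized counts in the floxed controls and at 121, 206, 199 and 190 in the knockouts. COX2, which takes electrons from cytochrome c, stood at 95.4, 69.6, 69.9 and 48.0 in the controls and at 79.3, 89.3, 89.4 and 87.1 in the knockouts. ATP6, the proton channel subunit of ATP synthase, stood at 56.8, 42.6, 52.1 and 28.4 in the controls and at 49.6, 80.6, 75.4 and 43.6 in the knockouts. For each of these genes the lowest library was floxed control 4. ND3, a small complex I subunit, stood at 28.9, 20.9, 8.34 and 7.11 in the controls and at 12.6, 27.2, 31.7 and 24.2 in the knockouts. ATP8 had 38 reads over all 8 libraries and at most 8 in 1 library, and ND4L had 15 reads and at most 4. Per kb, COX1 exceeded COX2 3321 to 5024 times and COX3 1936 to 3053 times, and ND5 exceeded COX3 132 to 312 times.

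The stretch with low counts has a near-identical annotated copy in the nuclear genome, on the minus strand of chr1:24611535-24616197 (GRCm38, 4663 bases). There 7 pseudogenes follow each other in the order of the mitochondrial genes and match the stretch chrM:6381-11042 (4662 bases). Of these pseudogenes, 5 were identical to their mitochondrial gene over their whole length: Gm28661 to COX2 over 681 bases, Gm10925 to ATP6 over 678, Gm28437 to COX3 over 783, Gm10222 to ND4L over 294 and Gm28439 to ND4 over 876. Gm28438, the copy of ND3, differed from it at 1 of 345 bases, and Gm29216, the copy of part of COX1, at 6 of 492. The unannotated gaps between the pseudogenes were as long as in the mitochondrial genome, except 1 of 74 bases where the mitochondrial genome has 73, which holds mt-Tr. ND3 and its copy are shown because 1 base is all that tells their reads apart. The capital marks the difference, T3C with positions from 1 at the 5′ end of ND3. The first 120 bases of each are given, 5′ to 3′: ND3 is chrM:9459-9806 on the plus strand, with chrM:9459-9578 shown, and Gm28438 is chr1:24612775-24613119 on the minus strand, with chr1:24613000-24613119 shown.
ND3: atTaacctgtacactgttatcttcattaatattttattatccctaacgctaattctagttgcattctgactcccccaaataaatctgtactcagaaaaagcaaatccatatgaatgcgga
Gm28438: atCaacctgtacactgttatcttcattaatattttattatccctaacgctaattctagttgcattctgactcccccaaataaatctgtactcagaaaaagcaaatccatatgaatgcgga

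Exact matches of 50 bases were searched for between each mitochondrial gene and the annotated nuclear transcripts on either strand. They covered 100% of COX2, 99.9% of COX3, 99.6% of ATP6, 99.0% of ND4L and 98.3% of ND3, which are 5 of the 6 low mRNA genes. They also covered 74.9% of COX1, 63.6% of ND4, 24.3% of ND5, 17.2% of ND2 and 4.11% of mt-Rnr2, all of them abundant. ATP8, the other low mRNA gene, had none, and the place that corresponds to it on chromosome 1 is a gap of 233 bases between Gm28661 and Gm10925 that is not annotated as a transcript. For the abundant genes, the bases without an annotated copy could still give reads. How the counting treated reads with more than 1 possible place is not given in the sources used here, and the part of the copies in the low counts was not tested. The levels of COX2, COX3, ATP6, ATP8, ND3 and ND4L are therefore given as uncertain, and those of COX1 and ND4 as possible undercounts.

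The rows of the chromosome 1 copies also held counts. Reads inside the 5 identical copies cannot be assigned to copy or mitochondrial gene by sequence, and Gm28438 differs from ND3 at 1 base only. Which of the 2 places gave these reads was not tested. Gm28438 stood at 479, 563, 559 and 280 normalized counts in the floxed controls and at 444, 899.7, 729.9 and 1251 in the knockouts, which was 16.6 to 67.0 times ND3 in the same library. Its limma difference was 0.78 (SE 0.30, adjusted p = 0.746), the groups overlapped, and 3 knockouts lay above every control. Gm28437 stood at 67.5 to 188 normalized counts, or 0.621 to 1.00 of COX3 in the same library, and Gm28661 at 42.7 to 70.5, or 0.521 to 1.01 of COX2. Gm10925 was 0.556 to 1.33 of ATP6. The 7 copies held too few counts to change the mitochondrial share of all counts by much. Adding them took it from 12.8185% to 12.8213% in floxed control 1, and the difference between the group means stayed at 1.63 percentage points. Reads that the counting may have left out are not in this sum.

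ATP8 is shown for a second reason that its reads are hard to assign. Its last 43 bases, in capitals, are also the first bases of ATP6, because the genes are read from 1 shared mRNA in different frames. ATP8 is chrM:7766-7969, plus strand.
ATP8: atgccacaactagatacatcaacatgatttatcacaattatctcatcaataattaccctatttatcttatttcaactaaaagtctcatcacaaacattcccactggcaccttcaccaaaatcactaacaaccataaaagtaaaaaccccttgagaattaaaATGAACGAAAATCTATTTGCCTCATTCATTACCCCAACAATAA

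The light strand gave little RNA by these counts. ND6 (chrM:13552-14070, minus strand), a membrane subunit of complex I and the single mRNA gene copied from that strand, stood at 2494, 2439, 2512 and 1532 normalized counts in the floxed controls and at 2179, 2620, 2428 and 2528 in the knockouts. Control 4 stood apart as the lowest library, and 2 knockouts, 6 and 8, lay above every control. Its neighbours on the plus strand were higher in all libraries: per kb, ND5 exceeded ND6 by 6.75 to 11.5 times and CYTB exceeded it by 22.7 to 33.2 times. The 8 tRNA genes of the minus strand were lower still. Taken as a set, the 9 minus-strand genes held 0.0413% to 0.0606% of all mitochondrial counts. The kit is labelled as stranded, but the strand setting of the counting is not given in the sources used here. Without it, reads of ND6 and those of plus-strand RNA running across the same bases cannot be told apart.

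The tRNA genes were covered thinly. Libraries of this kind rarely hold whole tRNAs, which are short, folded and heavily modified, so such reads can also come from longer RNAs that still carry the tRNA. Of the 22 tRNA genes, 5 had no read in any library (mt-Tk, mt-Tg, mt-Tr, mt-Ts2 and mt-Tl2). At 0 reads, a level of up to 2.61 to 3.63 normalized counts per library is allowed by counting error. A further 11 had at most 15 reads in any library, and 6 passed the minimum mean of 10 normalized counts: mt-Ti, mt-Tt, mt-Tw, mt-Tm, mt-Tp and mt-Tq. The 3 with most reads over the 8 libraries were mt-Ti with 3144, mt-Tt with 1696 and mt-Tw with 1673. All of these lie beside an abundant mRNA gene, but so do tRNA genes with few or no reads. mt-Tl2, which ends at the base before ND5, had no read. mt-Tl1, between mt-Rnr2 and ND1, had 18 reads over the 8 libraries. mt-Ti shares its first bases with the end of ND1 and its last with mt-Tq on the other strand, mt-Tw shares its first bases with the end of ND2, and mt-Tt starts at the base after CYTB. They are shown with mt-Tr and mt-Tk, which lie inside the low stretch and had no read. Shared bases are in capitals, and all 5 are on the plus strand: mt-Ti is chrM:3706-3774, mt-Tw is chrM:4950-5016, mt-Tt is chrM:15289-15355, mt-Tr is chrM:9808-9875 and mt-Tk is chrM:7700-7764.
mt-Ti: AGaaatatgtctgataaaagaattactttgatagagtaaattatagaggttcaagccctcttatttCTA
mt-Tw: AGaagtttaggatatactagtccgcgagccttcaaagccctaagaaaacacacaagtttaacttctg
mt-Tt: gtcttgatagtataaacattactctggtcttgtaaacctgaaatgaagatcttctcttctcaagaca
mt-Tr: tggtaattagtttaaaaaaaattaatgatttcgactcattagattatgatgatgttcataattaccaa
mt-Tk: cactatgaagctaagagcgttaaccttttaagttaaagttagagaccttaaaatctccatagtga

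mt-Ti, the isoleucine tRNA, stood at 471, 410, 338 and 398 normalized counts in the floxed controls and at 440, 318, 366 and 349.8 in the knockouts, with wide overlap. mt-Tt, the threonine tRNA, stood at 174, 281, 88.6 and 104.9 in the controls and at 213, 440, 155 and 243 in the knockouts, and 1 knockout lay above every control. mt-Tw, the tryptophan tRNA, stood at 170, 184, 200.2 and 100.4 in the controls and at 167, 290, 248 and 339 in the knockouts. Knockouts 6, 7 and 8 lay above every control, and knockout 5 lay among them. mt-Tm ranged over the 8 libraries from 131 to 212, mt-Tp from 24.0 to 69.7 and mt-Tq from 14.2 to 50.04. Per kb, mt-Ti (5598) was above ND6 (4511) in 7 of 8 libraries, ND6 was above mt-Tt (3171) in 7, and mt-Tt was above mt-Tw (3169) in 5, so that these neighbours in the order of levels were not clearly separated. Only mt-Ta, the alanine tRNA of the minus strand, had groups that did not overlap, at 1.74 to 4.44 normalized counts in the controls and 5.41 to 14.2 in the knockouts. It rested on 54 reads in all, was below the minimum for the test, and was singled out after its values were seen. Of the 13141 genes tested, 2.75% had groups that did not overlap.

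The whole mitochondrial genome took 12.8%, 14.4%, 12.97% and 10.8% of all normalized counts in the floxed controls and 12.6%, 12.9%, 17.6% and 14.4% in the knockouts. The means were 12.7% ± 1.49 and 14.4% ± 2.28 (SD, n = 4 each), the groups overlapped, and knockout 7 alone lay above every control. Counting error is small beside this spread, since the 95% Wilson interval of each share is at most 0.0129 percentage points to either side. The rRNA genes took 9.45% ± 0.983 in the controls and 10.5% ± 1.89 in the knockouts. The mRNA genes took 3.30%, 3.75%, 3.59% and 2.54% in the controls and 3.44%, 3.68%, 4.37% and 3.93% in the knockouts, with knockouts 7 and 8 above every control. Of the mitochondrial counts, 71.5% to 76.4% lay on rRNA genes, 74.2% ± 1.69 in the controls and 73.0% ± 1.53 in the knockouts. The tRNA genes took 0.00223% to 0.00327% of all counts in the controls and 0.00305% to 0.00395% in the knockouts.

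**Figure D2:**
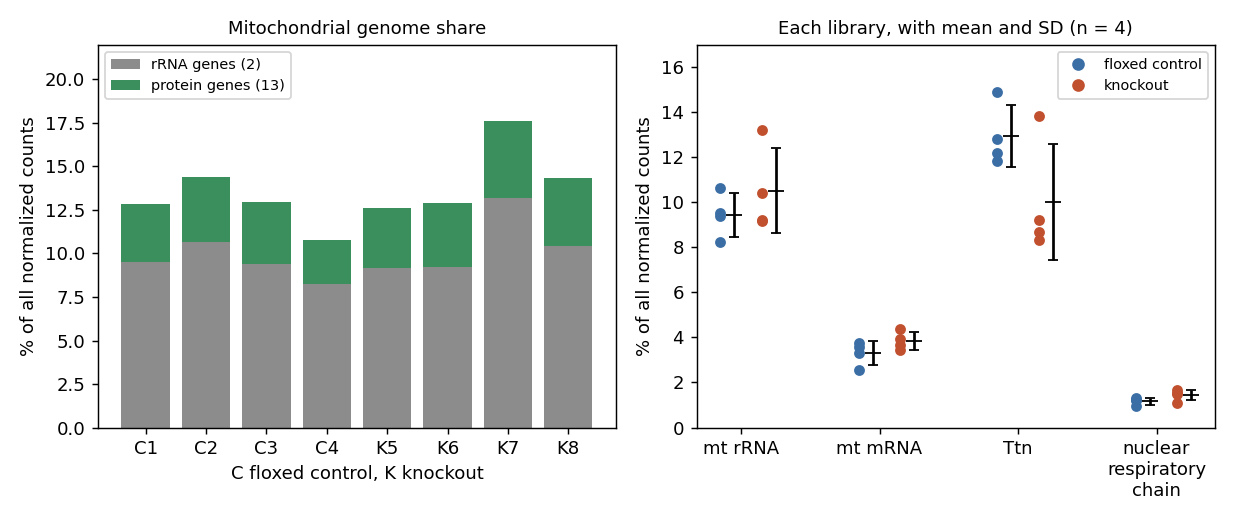
Left: percent of all normalized counts on the rRNA genes (grey) and mRNA genes (green) in each library, C1 to C4 for floxed controls and K5 to K8 for knockouts, stacked, with all classes together highest in knockout 7 at 17.6% and lowest in floxed control 4 at 10.8%. Right: the share of mitochondrial rRNA, mitochondrial mRNA, Ttn and the nuclear respiratory chain genes, 1 point per library with the mean and SD (n = 4) of each group beside it, and with overlapping groups in each.

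Other genes also differed between the libraries. Ttn, the giant spring protein of the sarcomere, took 14.9% of all counts in floxed control 4, the library with the smallest mitochondrial share, and 8.34% in knockout 7, the one with the largest. The libraries between them did not all follow this order. In knockout 6, Ttn took 8.67% at a mitochondrial share of 12.9%, inside the range of the controls. With Ttn left out of the total, the difference between the group means was 1.33 percentage points, against 1.63 with it. Neb, another very long sarcomere transcript, took 2.40% to 2.67% in the controls and 1.89% to 2.62% in the knockouts. Of 10 oxidative fibre markers, all were listed, none was at 0 in every library and 9 were higher in the knockouts on average. Their summed level was 6216 to 21352 normalized counts in the controls and 6042 to 63524 in the knockouts, highest in knockout 7, where the sum for fast glycolytic fibres was lowest (2076810). Myh2, a myosin of oxidative fast fibres, made up most of that sum, with 59055 in knockout 7, and it was the 1 marker of the 10 with a difference below 0. The other knockouts, with sums of 6042 to 9868, lay in or below the range of the controls. Of the 10 markers, 1 had an unadjusted limma p under 0.05, against 6.16% of all genes tested. It was Myl3, at 1.04 to 33.1 normalized counts in the controls and 38.8 to 107 in the knockouts, without overlap. Its limma difference was 2.89 (SE 0.775, adjusted p = 0.746). Of all genes tested, 2.75% had groups that did not overlap. Without knockout 7, the difference in mitochondrial share was 0.553 percentage points. Of 2 markers of brown fat, another tissue rich in mitochondria, Ucp1 had 0 reads in 7 libraries and 2 reads in knockout 7, and Cidea stood at 15.998 to 51.1 normalized counts in the controls and 21.8 to 78.2 in the knockouts. Markers of some cells other than muscle fibres were also higher in the knockouts by estimate, with none called by limma after adjustment. Over all genes tested, 50.6% were higher and 6.16% had an unadjusted p under 0.05. All 8 macrophage markers were higher, 5 of them at an unadjusted p under 0.05, and their sum was 1309 to 2316 in the controls and 2155 to 3903 in the knockouts. Of 8 endothelial markers, 6 were higher and 4 had an unadjusted p under 0.05, with sums of 7313 to 8383 and 8359 to 9999. Of 4 smooth muscle markers, all were higher and 1 had such a p, with sums of 1763 to 3192 and 2437 to 3986. Of 6 tested fibroblast markers 4 were higher, as were 4 of 6 tested adipocyte markers and all 5 red cell markers. None of these had such a p. Sums in controls and knockouts were 30581 to 49447 and 29643 to 69124.5 for fibroblasts. They were 2165 to 4815 and 2673 to 4963 for adipocytes, and 1120 to 5357 and 1899 to 3178 for red cells. The part of fibre type and of other cells in the mitochondrial share was not tested.

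The loss of Acot2 in muscle was compared with the floxed controls for the 19 mitochondrial genes with a mean of at least 10 normalized counts, which are both rRNA genes, 11 mRNA genes and 6 tRNA genes. None passed an adjusted p of 0.05 in limma with Benjamini-Hochberg adjustment over all 13141 genes tested, of which 0% passed. At an unadjusted p of 0.05, 1 of the 19 passed (mt-Tw) against 6.16% of all genes tested. limma's voom on the recovered reads also called 0 genes after adjustment, and 756 at the unadjusted threshold against 810 in the first fit. On the log2 scale, 18 of the 19 had a mean above that of the controls, with a median difference of 0.20. Over all genes tested, 50.6% had a mean above that of the controls. The 19 genes are not independent of each other, since they are cut from shared transcripts. The direction leaned on single libraries: 14 of 19 were higher without floxed control 4, 16 without knockout 5, and 15 without both. The median difference was 0.08 without floxed control 4, 0.20 without knockout 5 and 0.10 without both libraries. With any other single library left out, 18 of 19 were higher.

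Among the rRNAs, the limma difference was 0.10 for mt-Rnr2 (SE 0.319, adjusted p = 0.948) and 0.08 for mt-Rnr1 (SE 0.182, adjusted p = 0.925). The 95% interval for mt-Rnr2 ran from -0.60 to 0.81. That SE takes in a spread that limma fitted over genes of like level: it was 0.129 with voom and 0.137 with limma's robust fit, around an estimate of 0.10 in both. All 11 tested mRNA genes had a difference above 0, from 0.03 for ND4 to 0.67 for ND3. COX1 differed by 0.21 (SE 0.217, adjusted p = 0.836), with an interval of -0.26 to 0.69, and ND1 by 0.26 (SE 0.166, adjusted p = 0.756), with an interval of -0.11 to 0.62. CYTB differed by 0.13 (SE 0.137, adjusted p = 0.836) and ND2 by 0.20 (SE 0.122, adjusted p = 0.751). ND4 and ND5 were the nearest to 0, at 0.03 (SE 0.122) and 0.05 (SE 0.142), and both turned negative without floxed control 4 or without knockout 5. ND6, the light-strand mRNA, differed by 0.15 (SE 0.15, adjusted p = 0.836), and its difference turned to -0.03 without floxed control 4. Among the low mRNAs, COX3 differed by 0.29 (SE 0.258), COX2 by 0.32 (SE 0.212), ATP6 by 0.46 (SE 0.286) and ND3 by 0.67 (SE 0.484). Without floxed control 4, the differences of the mRNA genes were 0.08 for COX1, 0.14 for ND1, 0.05 for CYTB, 0.13 for ND2, 0.05 for COX3, 0.15 for COX2, 0.26 for ATP6 and 0.37 for ND3, and that of mt-Rnr2 was 0.04. Of the tRNA genes, mt-Tw differed by 0.67 (SE 0.254, interval 0.11 to 1.23, limma adjusted p = 0.746), mt-Tt by 0.74 (SE 0.377) and mt-Ti by -0.13 (SE 0.134). In limma, no adjusted p of the 19 was below 0.746. The interval of mt-Tw left out 0 and those of the other 18 held it, but no difference passed the adjustment over all genes.

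**Figure D3:**
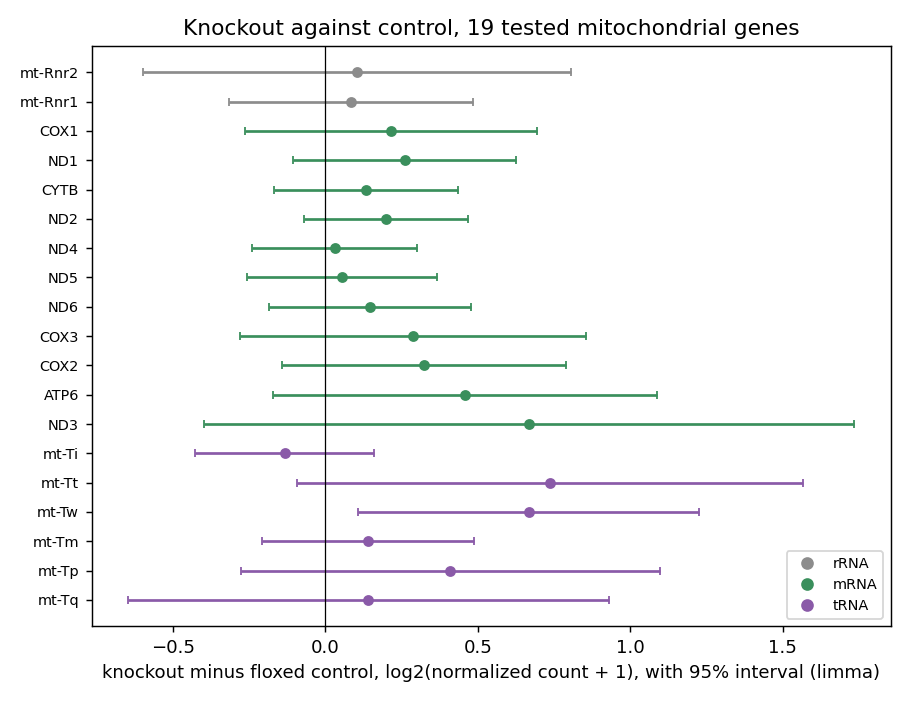
Difference between knockout and floxed control means (log2 values, knockout minus control) for the 19 tested mitochondrial genes, with the limma estimate as a point and its 95% interval as a line. Only the interval of mt-Tw lies wholly above 0, and mt-Ti alone has an estimate below 0.

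Ratios within a library do not depend on its size factor, and 5 were compared between the groups with a two-sided, exact permutation test that runs over 70 assignments and whose smallest p is 0.0286. The ratio of mt-Rnr1 to mt-Rnr2, which are cut from 1 transcript, was -3.30 ± 0.196 on the log2 scale in the controls and -3.32 ± 0.19 in the knockouts (SD, n = 4 each, exact p = 0.914, adjusted over the 5 ratios 0.943). The ratio of mt-Rnr2 to ND1, an rRNA to the first mRNA after it, was 4.37 ± 0.142 and 4.21 ± 0.113 (exact p = 0.171, adjusted 0.643), or 16.7-fold to 23.3-fold in the 8 libraries. The ratio of mt-Rnr2 to CYTB, the last mRNA of the heavy-strand transcript, was 4.50 ± 0.11 and 4.47 ± 0.142 (exact p = 0.743, adjusted 0.943). ND6 to CYTB, which sets the light against the heavy strand, was -5.91 ± 0.247 and -5.90 ± 0.138 (exact p = 0.943, adjusted 0.943), with CYTB 50.03 to 73.1 times ND6. CYTB to ND1, 2 mRNAs far apart on the heavy-strand transcript, was -0.20, -0.14, -0.17 and -0.01 in the controls and 0.01, -0.36, -0.35 and -0.32 in the knockouts. Knockouts 6, 7 and 8 lay below every control and knockout 5 above them all, and the means of -0.13 ± 0.0817 and -0.26 ± 0.177 were not separated by the test (exact p = 0.257, adjusted 0.643). Without knockout 5 the difference was -0.21. The exact p was then 0.0286 (adjusted 0.143), the smallest it can give. That p was fixed once the 1 knockout above the controls was left out, so it does not bear on a difference between the groups. As shares of the mitochondrial mRNA counts, ND1 took 12.4% to 13.1% in the controls and 11.99% to 14.1% in the knockouts, and CYTB took 10.8% to 12.4% and 10.6% to 12.1%.

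**Figure D4:**
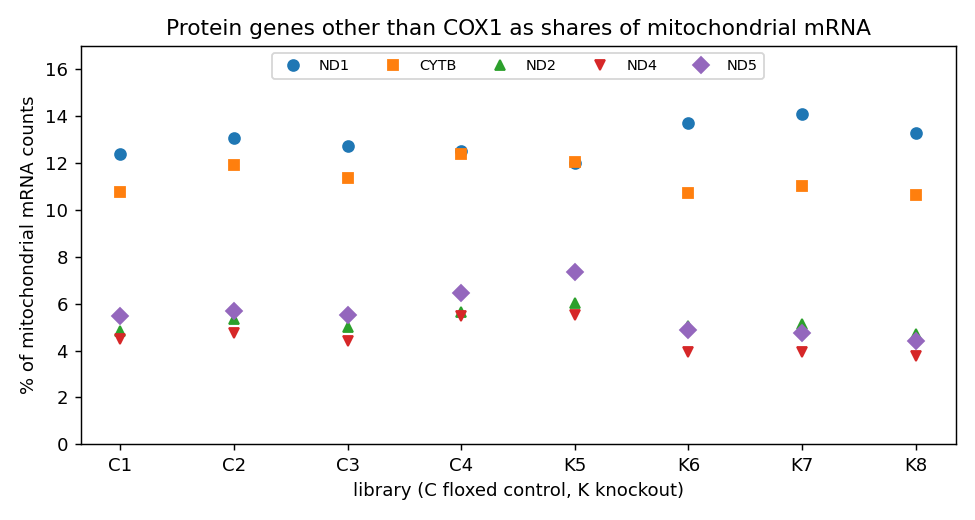
Percent of the normalized counts on mitochondrial mRNA genes that lay on ND1, CYTB, ND2, ND4 and ND5, in each floxed control (C1 to C4) and knockout (K5 to K8), 1 symbol per gene. CYTB lies beside or above ND1 in floxed control 4 (12.4% and 12.5%) and knockout 5 (12.1% and 11.99%), and below it in the other 6 libraries.

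The nuclear genes that make or read mitochondrial RNA were looked up from lists of 4 kinds. Over all genes tested, 50.6% were higher in the knockouts and 6.16% had an unadjusted p under 0.05. Of 17 tested genes of transcription and DNA maintenance, 9 were higher and 8 lower in the knockouts by limma estimate, and none was called. Tfam, which packs the DNA and starts transcription, stood at 941 to 1155 normalized counts in the controls and 1023 to 1234 in the knockouts, and Polrmt, the RNA polymerase, at 681 to 757 and 675 to 764. Both genes overlapped widely between the groups. Mterf2, a termination factor family member, differed by 0.47 (SE 0.22), Tfb2m, which opens promoters, by 0.17 (SE 0.0942) and Polg, the DNA polymerase, by -0.11 (SE 0.07), with all 4 knockouts below every control. Of 20 genes of RNA processing and stability, 15 were higher and none was called, and Ptcd3, a protein of the small ribosomal subunit, differed by 0.29 (SE 0.114), Fastkd2, which binds mt-Rnr2, by 0.25 (SE 0.126) and Lrpprc, which stabilises mitochondrial mRNAs, by 0.14 (SE 0.0844). Of 21 genes of rRNA and tRNA modification, 15 were higher and none was called, and the smallest p belonged to Nsun4 at 0.29 (SE 0.127), Cdk5rap1 at 0.32 (SE 0.152) and Mettl15 at 0.41 (SE 0.223), which modify rRNA or tRNA. Of 13 translation factors, 12 were higher, none was called and 4 had an unadjusted p under 0.05, among them Taco1, an activator of COX1 translation, at 0.35 (SE 0.135), and the elongation factors Gfm1 at 0.24 (SE 0.0987) and Tsfm at 0.43 (SE 0.191). None of these had a limma adjusted p below 0.746.

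The nuclear partners of the mitochondrial subunits were higher by estimate in nearly every case, again without a call. Of 77 tested nuclear subunits of the respiratory chain and ATP synthase, 76 were above the controls on average, against 50.6% of all genes tested. Their median difference was 0.25, and 19 had an unadjusted p under 0.05, against 6.16% of all genes tested. The median was 0.16 without floxed control 4, with 74 of 77 higher, 0.38 without knockout 5 and 0.29 without both. In the full set, the exception was Cox8a, of complex IV. Complex II, the single respiratory complex with no mitochondrially encoded subunit, had 4 of 4 higher, among them Sdhb at 0.40, Sdhd at 0.34 and Sdhc at 0.24. The genes with the smallest p in complex I were Ndufb5 at 0.42, Ndufb7 at 0.32 and Ndufs1 at 0.30. In complex IV they were Cox7a1 at 0.29, Cox4i1 at 0.30 and Cox6c at 0.27, and in ATP synthase Atp5g3 at 0.39, Atp5f1 at 0.35 and Atp5h at 0.26. In complex III they were Uqcrfs1 at 0.37, Uqcrc2 at 0.34 and Cyc1. In each of these named subunits other than Cox8a, 3 knockouts lay above every control, and the groups overlapped in all of them. Cyc1, the cytochrome c1 of complex III and partner of CYTB, stood at 4274, 4401, 4485 and 3088 normalized counts in the controls and at 3896, 6372, 5929 and 5409 in the knockouts. Its 3 highest libraries were knockouts 6, 7 and 8, and its difference was 0.40 (SE 0.162, limma adjusted p = 0.746). As a share of all counts, the nuclear subunits took 1.22%, 1.23%, 1.29% and 0.940% in the controls and 1.11%, 1.505%, 1.65% and 1.51% in the knockouts. Floxed control 4 and knockout 5 were the lowest of their groups in this share and in that of the mitochondrial genes. The macrophage, endothelial and smooth muscle marker sums given above were also higher in the knockouts on average. Library by library, they ran with the subunits in some cases and not in others. Floxed control 4, lowest of the 8 libraries in the subunit share, also had the lowest smooth muscle sum (1763). Knockout 6, with the highest subunit sum (533357), had the highest macrophage sum (3903). Knockout 5, lowest of the knockouts in the subunit share, had the highest endothelial (9999) and smooth muscle (3986) sums of the 8 libraries. Knockout 8 had the lowest macrophage sum of the knockouts (2155). The part of these cells in the differences was not tested. These lists were drawn up with earlier results of the same libraries known, so their counts are not independent evidence of a direction.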

How the data were processed

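RNA-seq was measured in 8 libraries of white quadriceps, 4 per group. The labels name a column extraction kit and a stranded library kit. STAR, cutadapt, HTSeq, FastQC and DESeq2 are listed in the submitters' processing notes, with no version, as is the build GRCm38. The authors deposited log2 values. From the values, each is log2(n + 1), where n is a whole number of reads over that library's size factor: up to 200 reads, 100% of values were within 0.1 read of a whole number. Not given in the sources used here: how reads with several possible places were handled, the strand setting, the read length and the RNA selection.

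From these log2 values, normalized counts were taken back as 2 to the power of the value minus 1. Levels per kb use the gene length in GENCODE M21 (GRCm38), which also gave positions, counted from 1, and all printed sequences. Genes with a mean of at least 10 normalized counts (13141) were tested with limma 3.58.1 in R 4.3.3 (eBayes, trend on), and p-values were adjusted over all of them by Benjamini-Hochberg. Differences are those of log2(n + 1) values and so understate the change of low genes, and p-values measure the spread between these mice. Mice were taken as separate animals because each title has its own mouse number. Copies were sought as exact matches of 50 bases and aligned with Biopython 1.88. The scripts were tested on simulated data.

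Named genes were Acot2, the mitochondrial genes, the 3 smallest p of each list, Ttn and Neb. Tfam, Polrmt, Acot1, Cox8a, Myh2, Myl3, Cidea, Ucp1 and the pseudogenes were named after their values were seen. The members, lists and tests were chosen with earlier results of these data known. Alternatives covered the pseudocount, the filter, the scaling, voom, the range of mouse numbers and leaving out libraries.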

Additional observations from a re-analysis of the deposited data

Results flagged for a closer look

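Of 58 groups of 4 libraries checked for a library far from the others, 2 stood out, and chance alone flags about 1 in 20 groups. ND6 stood at 1532 normalized counts in floxed control 4, while the other controls lay between 2439 and 2512. The log2 ratio of CYTB to ND1 was 0.01 in knockout 5 (0.0086), while the other knockouts lay between -0.36 and -0.32.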

How the results depend on the processing

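No paired analysis was run. The sample titles are numbered from 1 to 8 over the series, and the columns of values are numbered from 1 in each group. No label says that mice with the same number form a pair. Of the 19 mitochondrial genes, 0 were called under each of the 17 alternatives run. Over all genes, limma called 0 except without the filter on low values, where 1 gene of 25596 (Acot2) was called with an adjusted p of 0.0042. Leaving out 1 library at a time, differences that changed sign ranged from -0.0546 to 0.104 for ND4, from -0.0668 to 0.124 for ND5, from -0.0284 to 0.209 for ND6 and from -0.189 to 0.393 for mt-Tq. Without both floxed control 4 and knockout 5 they were -0.0992 for ND4, -0.123 for ND5 and -0.165 for mt-Tq. The log2 ratio differences ranged from -0.111 to 0.0353 for mt-Rnr1 to mt-Rnr2, from -0.0822 to 0.1002 for ND6 to CYTB and from -0.0857 to 0.0258 for mt-Rnr2 to CYTB, and without both libraries the latter 2 were -0.0310 and 0.0451. The cause was not tested. The difference in mitochondrial share ranged from 0.553 to 2.21 percentage points. Unadjusted calls over all genes ranged from 367 without floxed control 4 to 2200 without knockout 5. Equal library totals outside the mitochondrial genome raised the share of all genes higher in the knockouts from 50.6% to 64.1%, with 18 of the 19 mitochondrial genes higher in both. Low counts limit the genes from COX2 to ND4L and the tRNAs. Levels with all counts set over bases without a copy were chosen after seeing the data, and are given above with the orders they turn. Other match lengths were chosen likewise. Matches of 30 or 100 bases put 90.4% or 48.1% of COX1 in a nuclear copy, and 100% or 99.6% of COX2.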

Other observations

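Within the mitochondrial mRNA, the shares of the complex I genes ND2, ND4 and ND5 were largest in the same 2 libraries, floxed control 4 and knockout 5. ND5 took 5.47%, 5.68%, 5.50% and 6.46% of the mitochondrial mRNA counts in the floxed controls and 7.33%, 4.86%, 4.75% and 4.40% in the knockouts. ND4 took 4.48%, 4.73%, 4.43% and 5.47% in the controls and 5.52%, 3.96%, 3.94% and 3.77% in the knockouts. ND2 took 5.64% in floxed control 4 and 6.03% in knockout 5, and 4.70% to 5.33% in the other 6 libraries. The same libraries had the largest shares of Ttn among all counts, at 14.9% and 13.9%, against 8.34% to 12.8% in the others. The pattern was chosen after its values were seen and was not tested.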
